A study of Homo sapiens with 4 samples.

Results

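Claudins, occludin and the zonula occludens scaffolds were followed as RNA through 4 human colorectal cancer cell lines. The 9 genes, CLDN1, CLDN3, CLDN4, CLDN7, CLDN11, CLDN12, OCLN, TJP1 and TJP3, were taken by symbol, and all 9 have a row among the 57746 genes of the deposited table. DLD1 is the parental line, of epithelial character. SA was grown out of soft agar colonies of DLD1 and SPH out of colonospheres, and both are labelled mesenchymal. METS, labelled epithelial, was established from a tumour that a xenograft had seeded in the lung. All 4 lines were kept in McCoy's 5A medium with serum. Each line has 1 library, and the labels do not say whether a derived line is a clone. According to the title of the series, the lines stand for the passage between the epithelial and the mesenchymal state in metastasis.

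Tight junctions seal the space between neighbouring epithelial cells near their apical end. Claudins are small proteins with 4 membrane passes that polymerise into strands, and the set of claudins a cell makes decides whether the seal is tight or lets ions through. Occludin sits in the same strands, and the zonula occludens proteins, encoded by the TJP genes, tie claudins and occludin to the actin cytoskeleton from inside the cell. In the intestine, loss of claudins and occludin is a classical part of epithelial-mesenchymal transition, because the transcription factors SNAI1, SNAI2 and ZEB1 can bind E-box motifs in their promoters.

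Values are RPKM, read numbers scaled to the length of the gene and the size of the library, so levels can be set beside each other between genes. The step size of low values put 1 RPKM at about 48.6 reads per kilobase of transcript for SA, 52.7 for SPH, 50.2 for METS and 53.95 for DLD1. Between 10920 and 11238 genes reached 1 RPKM per library. All 8 epithelial markers examined, among them EPCAM and CDH1, stood at 4.24 RPKM or above in all 4 lines, including the 2 labelled mesenchymal. None of 10 fibroblast markers reached 1 RPKM, with sums of 0.26, 0.50, 0.31 and 0.22 RPKM in SA, SPH, METS and DLD1. Of 10 leukocyte markers 6 were listed at 0 in all lines, and the list summed to between 0.76 and 1.5 RPKM. In bulk RNA, fewer cells making a transcript and less transcript per cell cannot be told apart.

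The order of the 9 genes by level was much the same in all lines, with CLDN7 and CLDN4 far above the rest. Over the 4 lines CLDN7 spanned 72.19 to 126.45 RPKM and CLDN4 36.29 to 59.54 RPKM, and the ranges did not meet. TJP1 (12.30 to 16.75 RPKM), CLDN3 (8.76 to 15.52) and TJP3 (6.92 to 12.58) followed with overlapping ranges, so their order depends on the line. CLDN12 lay between 3.08 and 4.14 RPKM, above CLDN1 (0.56 to 2.48), OCLN (0.82 to 1.81) and CLDN11 (0.06 to 1.56), whose ranges overlap each other.

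**Figure D1:**
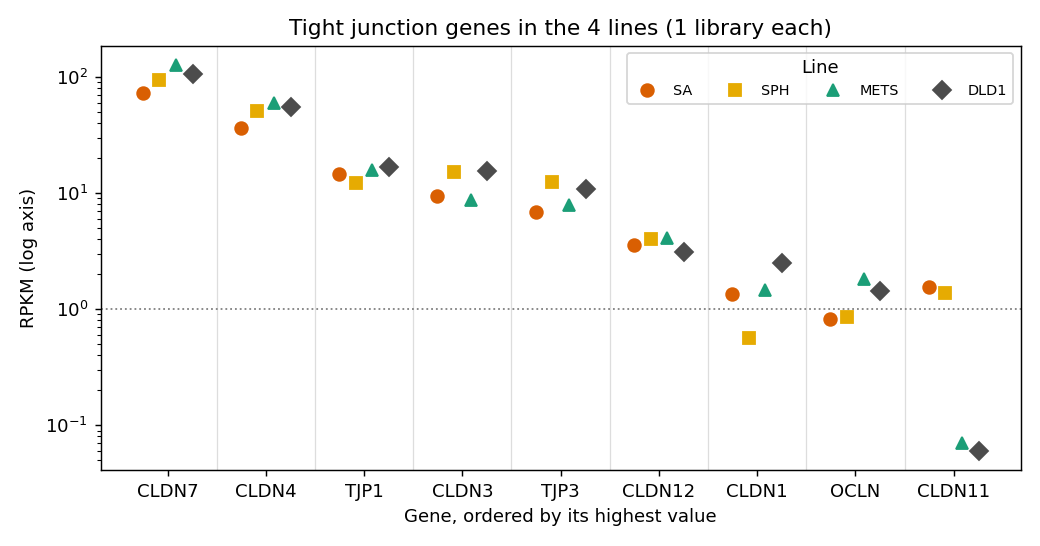
RPKM on a log axis for each of the 9 genes, one point per line (SA, SPH, METS, DLD1), with the dotted line at 1 RPKM. CLDN11 is the gene that crosses the plot, at 1.56 and 1.38 RPKM in SA and SPH and at 0.07 and 0.06 in METS and DLD1, while CLDN7 and CLDN4 stay on top in every line.

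CLDN11 was the member set furthest apart. It encodes the claudin best known from the myelin of oligodendrocytes and from Sertoli cells of the testis. CLDN11 stood at 1.56 RPKM in SA and 1.38 in SPH, against 0.07 in METS and 0.06 in DLD1. Both mesenchymal lines were high and both epithelial lines close to nothing, with no overlap. The RPKM of CLDN11 in SA was 26.0 times that in DLD1, with a 95% counting interval of 12.3 to 65.7, and that in SPH 23.0 times (10.96 to 58.4). These intervals rest on about 164 reads in SA, 158 in SPH and 7 in DLD1, estimated from the library depth and the longest GENCODE 29 transcript, and they cover counting error only. METS, with about 8 reads, and DLD1 were not distinguishable at this depth (ratio 1.17, counting interval 0.389 to 3.98). In GENCODE 29, 683 exon bases of CLDN11 overlap another gene on the same strand, so reads there may be shared.

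As log2(RPKM + 1), a scale that compresses the differences of low genes, CLDN11 was higher than DLD1 by 1.27 in SA and by 1.17 in SPH. In the class comparison, SA and SPH against METS and DLD1, CLDN11 rose by 1.21 ± 0.12 (SE, adjusted p = 0.031, limma-trend with Benjamini-Hochberg adjustment over all genes, 2 lines per class). It was higher in 4 of 4 pairs of a mesenchymal with an epithelial line, as were 24.7% of 11262 genes. It was the 1 of 9 members that passed the class test, where 0.355% of genes did. The members were chosen with earlier results of these data known, so this count is not independent of them. The class p measures the spread between different lines, not between cultures of a line. The call was lost without SA (adjusted p = 0.18, limma-trend), without SPH (0.26), without METS (0.067) and with no minimum level (0.082). Over all alternatives run it ranged from 0.016 to 0.26, while the fold stayed between 1.16 and 1.27 except with another pseudocount (3.25 with 0.1 and 0.35 with 5). CLDN11 entered the test only through SA and SPH, since METS and DLD1 lay under the minimum of 1 RPKM.

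The next 3 genes matched the profile of CLDN11 most closely by their 3 log2 folds against DLD1, among 11664 genes of at least 1 RPKM in a line. STRA6, the membrane receptor for retinol-binding protein, stood at 1.39 RPKM in SA and 1.29 RPKM in SPH, against 0.00 in METS and 0.01 in DLD1, and no fold of it lay more than 0.03 from that of CLDN11. The fatty acid elongase ELOVL5 stood at 1.51 and 1.21 RPKM against 0.00 and 0.01. The chondroitin sulfotransferase CHST11 stood at 1.41 and 1.40 RPKM against 0.02 and 0.03. The neighbours of CLDN11 on chromosome 3 did not share its profile to that extent. SKIL, a repressor of SMAD signalling, stood at 2.54 RPKM in SA and 2.65 RPKM in SPH, against 1.90 in METS and 1.84 in DLD1, and SLC7A14 was listed at 0 in all 4 lines.

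The 250 bases before the first RefSeq start of CLDN11 and before the start of CLDN1, the other wide-ranging gene, are printed. They show 2 windows rich in CpG. Against DLD1, CLDN11 was higher in SA and SPH, and CLDN1 was lower in SA, SPH and METS. Capitals mark each CG, bases run 5′ to 3′ on the gene's own strand, and both genes lie on chromosome 3 (RefSeq, GRCh38.p14, CLDN11 on the plus strand and CLDN1 on the minus strand).
CLDN11: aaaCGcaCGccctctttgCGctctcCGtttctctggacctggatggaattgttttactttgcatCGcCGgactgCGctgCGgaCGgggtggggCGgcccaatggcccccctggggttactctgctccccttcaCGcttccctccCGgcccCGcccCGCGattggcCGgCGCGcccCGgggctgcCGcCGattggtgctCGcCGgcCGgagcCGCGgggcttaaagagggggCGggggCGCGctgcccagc
CLDN1: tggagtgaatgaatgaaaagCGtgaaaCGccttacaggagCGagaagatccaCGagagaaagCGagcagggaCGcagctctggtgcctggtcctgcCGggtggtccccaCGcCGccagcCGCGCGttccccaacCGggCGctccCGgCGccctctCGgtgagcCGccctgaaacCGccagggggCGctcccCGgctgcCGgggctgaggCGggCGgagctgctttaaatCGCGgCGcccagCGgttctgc

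The CLDN11 window holds 29 CG dinucleotides and the CLDN1 window 28. Of 35116 promoter windows of the same length 85.9% hold fewer than CLDN11 and 84.1% fewer than CLDN1, and the median is 11. The second RefSeq start of CLDN11 has 2. Which start the reads came from is not given by a value per gene.

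CLDN1 was highest in the parental line. It encodes a claudin that tightens the seal and whose loss opens the skin barrier in mice. CLDN1 stood at 1.36 RPKM in SA, 0.56 in SPH and 1.47 in METS, against 2.48 in DLD1. All 3 derived lines were below the parental line, SPH lowest. The RPKM of CLDN1 in SPH was 0.226 times that in DLD1 (95% counting interval 0.181 to 0.281, about 103 and 466 reads). The ratios to DLD1 were 0.548 for SA (0.466 to 0.643) and 0.593 for METS (0.507 to 0.692). SPH also lay below SA, at 0.412 times its value (0.324 to 0.523), whereas METS and SA differed by less than counting error (1.08, 0.902 to 1.30). In the class comparison CLDN1 had a log2 fold of -0.61 ± 0.25 (SE) and did not pass (adjusted p = 0.58, limma-trend). The fold was -0.36 without DLD1 and -0.31 without SPH.

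The genes nearest to CLDN1 in profile were IGFL2, of the insulin growth factor-like family, the NF-kappaB subunit RELB and the tropomyosin TPM1. IGFL2 stood at 4.25 RPKM in SA, 2.54 in SPH and 4.84 in METS, against 7.19 in DLD1, and RELB at 3.10, 2.24 and 3.38 against 5.59. TPM1 stood at 19.05 RPKM in SA, 14.93 in SPH and 19.69 in METS, against 31.70 in DLD1, and its folds lay within 0.17 of those of CLDN1. CLDN16, a neighbour of CLDN1, was listed at 0.01 RPKM in all 4 lines.

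CLDN7 and CLDN4, the dominant claudins, were lowest in SA and highest in METS. CLDN7 lies along the lateral membrane of colon cells, where it binds the adhesion molecule EPCAM, and CLDN4 limits the passage of sodium. CLDN7 stood at 72.19 RPKM in SA, 93.94 in SPH and 126.45 in METS, against 105.49 in DLD1. CLDN4 stood at 36.29 RPKM in SA, 50.83 in SPH and 59.54 in METS, against 55.47 in DLD1. For both genes the 2 mesenchymal lines lay below the 2 epithelial lines without overlap, as in 13.1% of genes tested. SPH was still close to DLD1. The ratio of CLDN7 to DLD1 was 0.684 for SA, 0.891 for SPH and 1.20 for METS. That of CLDN4 was 0.654 for SA, 0.916 for SPH and 1.07 for METS. Each of these 6 ratios has a counting interval that excludes 1, since about 6747 or more reads lie behind each value. The class folds were -0.48 ± 0.16 for CLDN7 and -0.41 ± 0.17 for CLDN4 (SE, log2 scale), and neither passed (adjusted p = 0.49 and 0.58, limma-trend). Without SA the folds were -0.295 for CLDN7 and -0.174 for CLDN4, and without SPH that of CLDN4 was -0.649.

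CLDN3 went with neither class. It is a sealing claudin encoded beside CLDN4 on chromosome 7. CLDN3 stood at 9.45 RPKM in SA, 15.22 in SPH and 8.76 in METS, against 15.52 in DLD1. SA and METS were low, SPH and DLD1 high. The RPKM of CLDN3 in METS was 0.564 times that in DLD1 (95% counting interval 0.508 to 0.625), and in SA 0.609 times (0.549 to 0.674), while SPH could not be told from DLD1 by counting error (0.981, 0.899 to 1.07). The balance of the pair was unequal between lines, and CLDN4 stood at 3.84 times the level of CLDN3 in SA, 3.34 in SPH and 6.80 in METS, against 3.57 in DLD1. The class fold of CLDN3 was 0.04 ± 0.30 (SE, adjusted p = 0.99, limma-trend), and its sign turned without SPH (-0.28), without METS (-0.34) and with a correction for GC content (-0.003). The transcript of CLDN3 has the highest GC content of the 9, 69.2%.

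CLDN12, an unusual claudin that lacks the C-terminal motif with which other claudins bind ZO proteins, varied least on the log2 scale. It stood at 3.59 RPKM in SA, 4.06 in SPH and 4.14 in METS, against 3.08 in DLD1. All 3 derived lines were above the parental line, by 1.17, 1.32 and 1.34 times, and the smallest of these, SA, had a counting interval of 1.04 to 1.31. The class fold was 0.07 ± 0.15 (SE, adjusted p = 0.94, limma-trend) and turned to -0.09 without DLD1. In GENCODE 29 exons of CLDN12 overlap those of other genes on the same strand by 201 to 371 bases, and exons of CLDN11 by 683 and of CLDN7 by 269. Whether counting used strand is not stated, so reads of these stretches may be shared. OCLN has a pseudogene copy, and reads common to both may have been split as well.

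Summed over the 23 claudins in the table, the RPKM came to 134 in SA, 175 in SPH and 208 in METS, against 192 in DLD1. CLDN7, CLDN4 and CLDN3 together made up 87.8% of that sum in SA, 91.6% in SPH and 93.5% in METS, against 92.2% in DLD1. CLDN11 contributed 1.16% in SA and 0.790% in SPH, against 0.0336% in METS and 0.0313% in DLD1. Claudins of at least 1 RPKM numbered 10 in SA, 9 in SPH and 8 in METS, against 9 in DLD1.

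**Figure D2:**
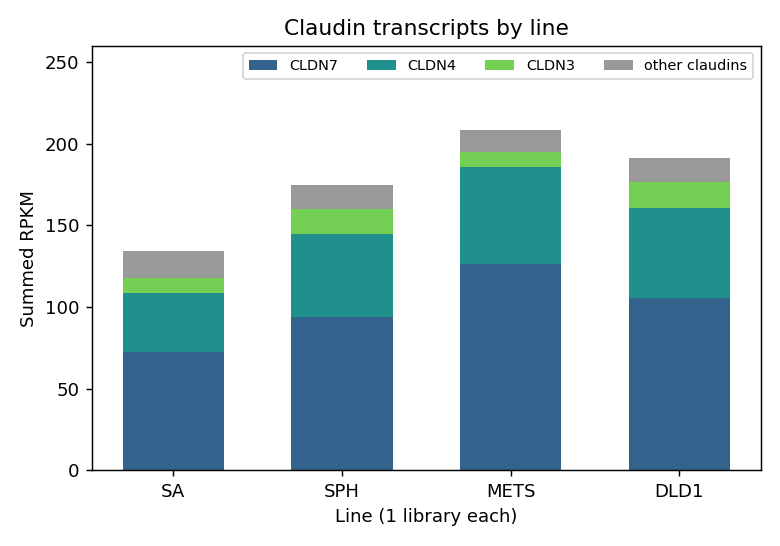
Summed RPKM of 23 claudins per line, stacked as CLDN7, CLDN4, CLDN3 and all other claudins, with 1 library per line and no error bars. The bars reach 134 for SA, 175 for SPH and 208 for METS, against 192 for DLD1, and CLDN7 is the largest block in each.

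OCLN was low in both mesenchymal lines. Occludin is a MARVEL-domain protein of the strands that regulates the passage of larger solutes. OCLN stood at 0.82 RPKM in SA and 0.86 in SPH, against 1.81 in METS and 1.44 in DLD1. The pairs do not overlap. OCLN in SPH stood at 1.05 times its level in SA, within counting error (0.883 to 1.24). The RPKM of OCLN in SA was 0.569 times that in DLD1 (95% counting interval 0.489 to 0.665), that in SPH 0.597 times (0.516 to 0.692) and that in METS 1.26 times (1.11 to 1.42). METS stood at 2.21 times SA and 2.11 times SPH. The class fold was -0.51 ± 0.13 (SE). Its unadjusted p of 0.0076 (limma-trend) did not survive adjustment over all genes (adjusted p = 0.36). OCLN was lower in 4 of 4 pairs of a mesenchymal with an epithelial line, a pattern of 13.1% of the 11262 genes tested. MARVELD2, which encodes tricellulin, the related protein of corners where 3 cells meet, is the neighbour of OCLN on chromosome 5 and stood at 5.72 RPKM in SA, 4.81 in SPH and 5.71 in METS, against 5.41 in DLD1.

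Short stretches with E-box motifs before the starts of CLDN7 and OCLN are printed as examples of the motif at a claudin and at occludin, both lower in the 2 mesenchymal lines. Both strands were searched for CACCTG, which reads CAGGTG on the other strand, in the 250 bases before each RefSeq start, and the motifs are in capitals (RefSeq, GRCh38.p14). The CLDN7 stretch, on the minus strand of chromosome 17, covers bases 30 to 1 before its second start, and the OCLN stretch, on the plus strand of chromosome 5, covers bases 45 to 16 before its first start.
CLDN7: tacatatactCAGGTGcgcccCACCTGtcc
OCLN: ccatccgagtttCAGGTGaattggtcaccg

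The window before the second start of CLDN7 holds 4 matches, the nearest beginning 9 bases before the start, a count reached by 0.1225% of all promoter windows. Of 16 RefSeq starts of the 9 genes 5 hold at least 1 match, at CLDN7, OCLN, TJP1 and TJP3, against 17.5% of all windows. The match nearest to a start lies 7 bases before the second start of TJP3, a gene that was highest in SPH and overlapped between the classes. The first start of CLDN7 and the windows of CLDN1, CLDN3, CLDN4, CLDN11 and CLDN12 hold none. CLDN4, without a match, also lay lower in both mesenchymal lines, as CLDN7 and OCLN did. A match is a run of letters and no measure of binding, and its part in these values was not tested.

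Of the factors known to bind that motif, ZEB1, SNAI2 and ZEB2 lay under 1 RPKM in every line, and SNAI1 lay above it. ZEB1 stood at 0.26 RPKM in SA and 0.23 in SPH, against 0.06 in METS and 0.02 in DLD1, under the minimum for the class test. SNAI1 stood at 1.52 RPKM in SA and 1.94 in SPH, against 2.41 RPKM for METS and 2.0 for DLD1. SNAI2 did not exceed 0.05 RPKM in any line and ZEB2 was listed at 0. Of 10 tested transcription factors known to act on claudin or occludin genes none passed, where 0.355% of all genes did. OVOL1, an epithelial factor that restrains ZEB1, had the widest range, at 3.31 RPKM in SA and 3.04 RPKM in SPH against 5.94 in METS and 4.97 in DLD1 (class fold -0.63 ± 0.13 SE, adjusted p = 0.25, limma-trend). GRHL3, a grainyhead factor of barrier genes, stood at 11.91 and 11.46 RPKM against 15.76 and 17.28 (adjusted p = 0.33, limma-trend).

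The ZO scaffolds TJP1 and TJP3 did not run in parallel. TJP1 encodes ZO-1 and TJP3 encodes ZO-3, PDZ-domain proteins that bind the tails of claudins. TJP1 stood at 14.66 RPKM in SA, 12.30 in SPH and 15.97 in METS, against 16.75 in DLD1. Both mesenchymal lines were below both epithelial lines, as in 13.1% of genes tested. SPH was lowest, at 0.734 times DLD1 (95% counting interval 0.708 to 0.761). TJP3 stood at 6.92 RPKM in SA, 12.58 in SPH and 7.84 in METS, against 10.89 in DLD1. Its high lines were SPH and DLD1, as for CLDN3, and its low ones SA (0.635 times DLD1, 0.590 to 0.684) and METS (0.720 times, 0.671 to 0.772). The level of TJP1 was 2.12 times that of TJP3 in SA, 0.978 in SPH and 2.04 in METS, against 1.54 in DLD1. The class folds were -0.27 ± 0.12 for TJP1 and 0.02 ± 0.27 for TJP3 (SE), with adjusted p = 0.62 for TJP1 (limma-trend). The fold of TJP1 was -0.148 without SPH, and that of TJP3 turned to -0.019 with median-of-ratios scaling and to -0.018 with GC correction.

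**Figure D3:**
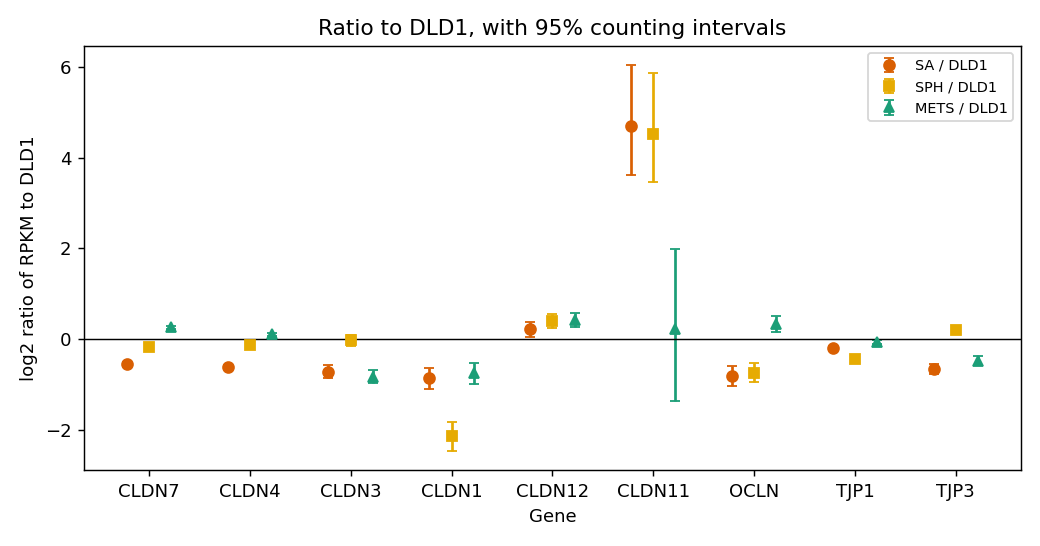
log2 ratio of RPKM to DLD1, with no pseudocount, for SA, SPH and METS, and 95% counting intervals that leave out the spread between cultures. CLDN11 stands at 4.70 in SA and 4.52 in SPH. CLDN1 lies lowest at -2.15 in SPH and stands at -0.87 in SA. The genes apart from CLDN11 and CLDN1 lie between -0.825 and 0.43.

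Set against DLD1 line by line, few members passed 2-fold on the log2(RPKM + 1) scale, and the 3 comparisons share the DLD1 library. In SA, 1 of 9 members did, CLDN11, where 0.677% of 11367 genes of at least 1 RPKM in either line did. By sign alone 7 of 9 members were below DLD1 in SA, against 44.4% of genes, with a median log2 fold of -0.54 against 0.025 over all genes. CLDN3 (-0.66), CLDN4 (-0.60), TJP3 (-0.59), CLDN1 (-0.56) and CLDN7 (-0.54) lay close together there. With a correction for GC content these log2 folds were -0.539, -0.535, -0.486, -0.644 and -0.460 in the same order. The fold of CLDN12 in SA was 0.060 with that correction, against 0.170 without it. In SPH, 2 of 9 passed 2-fold, CLDN11 higher and CLDN1 lower, where 1.26% of genes did. In SPH 6 of 9 were below DLD1, against 43.6% of genes, with a median of -0.12 against 0.027, and CLDN3, CLDN4 and CLDN7 lay between -0.17 and -0.03. In METS none of the 8 measured members passed (1.42% of genes did). Of these 4 were below DLD1, against 54.9% of genes, and the median was 0.02 against -0.029. With a correction for GC content the log2 folds of METS against DLD1 were 0.24 for CLDN4, 0.42 for CLDN7, -0.26 for TJP3, -0.60 for CLDN3 and 0.12 for OCLN, against 0.10, 0.26, -0.43, -0.76 and 0.20 without it.

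The 2 mesenchymal lines differed from each other in the sealing claudins and TJP3. TJP3 in SPH was 1.82 times its level in SA (95% counting interval 1.69 to 1.95), CLDN3 1.61 times (1.45 to 1.79), CLDN4 1.40 times and CLDN7 1.30 times, while CLDN11 and OCLN stood within counting error of each other (0.885 and 1.05 times). No member passed 2-fold on the log2(RPKM + 1) scale, where 0.262% of genes did, although the plain RPKM ratio of CLDN1 was 0.412. GC correction gave log2 folds of SPH against SA of 0.676 for TJP3, 0.482 for CLDN3, 0.424 for CLDN4 and 0.304 for CLDN7. Without it the folds on the log2(RPKM + 1) scale were 0.778, 0.634, 0.475 and 0.375. METS was also set against each mesenchymal line. CLDN11 was the 1 member at least 2-fold apart on that scale, with log2 folds of -1.26 against SA and -1.15 against SPH, where 1.92% and 2.64% of genes passed. The plain RPKM ratio of CLDN1 in METS to SPH was 2.63 (95% counting interval 2.08 to 3.33). METS held more CLDN7 than either, at 1.75 times SA and 1.35 times SPH, and more CLDN4, at 1.64 times SA and 1.17 times SPH.

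Across the classes, 5 of 9 members (CLDN1, CLDN4, CLDN7, OCLN and TJP1) had both mesenchymal lines below both epithelial lines, a pattern of 13.1% of the 11262 genes. CLDN11 alone had both above, a pattern of 24.7% of genes. CLDN3, CLDN12 and TJP3 overlapped. CLDN1 counts among the 5 although METS and SA differed by less than counting error (1.08 times, 0.902 to 1.30). Each derived line lay below DLD1 for CLDN1. The median class fold was -0.27 over the 9 members and 0.04 over all genes. Because the members were chosen with earlier results of these data known, neither these counts nor this median is independent of those results. With summed epithelial marker RPKM of 1637 in SA and 1772 in SPH, against 2838 in METS and 2216 in DLD1, the sum of that list was lower in the mesenchymal lines, and its part in the members' values was not tested. The sum is made up mostly of KRT8, KRT18 and KRT19. None of the 8 markers passed the class test, where 0.355% of all genes did. EPCAM stood at 222.22 RPKM in SA, 231.10 in SPH and 262.59 in METS, against 212.20 in DLD1.

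No other tight junction gene of the lists examined passed the class test, where 0.355% of all genes did. Of 17 further claudins 4 reached 1 RPKM and 6 were listed at 0 in all lines. CLDN15, a pore-forming claudin of the gut, stood at 5.15 RPKM in SA and 4.32 RPKM in SPH, against 2.73 in METS and 2.96 in DLD1 (class fold 0.57 ± 0.13 SE, adjusted p = 0.30, limma-trend). CLDN9 stood at 1.52 and 1.41 RPKM against 2.23 and 2.52 (-0.45 ± 0.12, adjusted p = 0.37, limma-trend). CLDN2, the cation-channel claudin of leaky epithelia, did not exceed 0.05 RPKM.

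None of 8 tested transmembrane partners and none of 19 tested plaque, scaffold and polarity genes passed the class test (limma-trend), where 0.355% of all genes did. Of them 1 and 2 had an unadjusted p under 0.05 (limma-trend), which 8.65% of all genes tested reached. The median class folds were -0.11 and -0.06. LSR, the angulin receptor of tricellular corners, stood at 55.46 RPKM in SA and 49.32 RPKM in SPH, against 67.24 in METS and 73.75 in DLD1 (-0.42 ± 0.12 SE, adjusted p = 0.38, limma-trend), and ILDR2, another angulin, at 3.56 and 2.91 against 2.22 and 3.37. Among plaque genes ARHGEF2, a microtubule-associated protein held at the junction, stood at 3.80 and 2.95 RPKM against 5.33 and 4.30. AMOTL2, of the angiomotin family, stood at 19.64 RPKM in SA, 20.61 in SPH and 19.61 in METS, against 29.53 in DLD1. Against DLD1, 15 of 19 plaque genes were lower in SA (median log2 fold -0.10), 15 in SPH (-0.11) and 10 in METS (-0.07). Over all genes 44.4%, 43.6% and 54.9% were lower, so that the METS count is near the share over all genes. With median-of-ratios factors these shares were 48.6%, 48.7% and 50.7%, and no plaque counts are given with them.

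**Figure D4:**
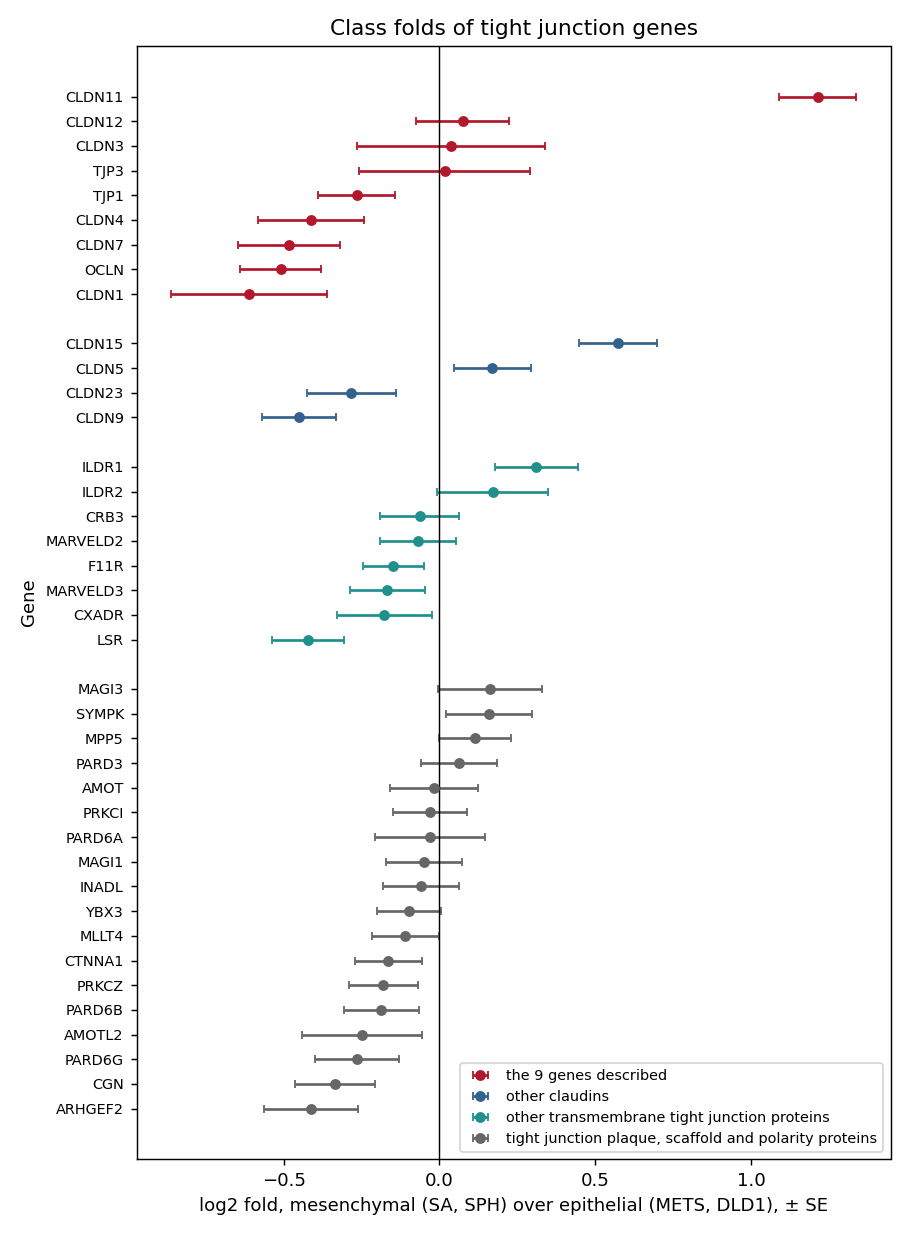
Class log2 fold (SA and SPH over METS and DLD1) with its SE from limma-trend for the 9 genes and for tested genes of 3 further tight junction lists, less 1 plaque gene that is not shown. CLDN11 stands alone at 1.21, CLDN15 follows at 0.57, and CLDN1 and OCLN lie lowest at -0.61 and -0.51.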

How the data were processed

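Total RNA of 4 cell lines was sequenced on Illumina libraries, 1 per line, as the labels' protocols state. The authors deposited a single table of RPKM values per gene, rounded to 2 decimals. The unit was read from the values, which are not whole and whose product with gene length in kb sums to 938300 to 948900 per line. Reads were placed on hg19 (per the submitters' processing notes). Which aligner, read counter and gene annotation were used is not given in the sources used here.

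Pairs of lines were compared as ratios of RPKM + 1, over genes of at least 1 RPKM in either line, with a 2-fold rule and no test. The class comparison used limma-trend, from limma 3.58.1 under R 4.3.3, on log2(RPKM + 1) over genes of at least 1 RPKM in 2 of 4 libraries, adjusted by Benjamini-Hochberg at 0.05. The fit was also run on data simulated with the same normal spread for every gene. The real spread differs between genes, so nothing about the test on these lines is concluded from that run. Depth came from the spacing of low values of genes of 200 to 500 bases. Reads per gene were estimated with the longest GENCODE 29 transcript, and ratios have exact (Clopper-Pearson) 95% intervals for counting error only. The authors' gene lengths are not given, so read numbers are approximate.

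The genes and lists were chosen with earlier results of these data known. Beyond the 9 genes, the 2 genes of each list with the widest range and, for CLDN11 and CLDN1, the 3 nearest genes were to be named. ZEB1, SNAI1, SNAI2, ZEB2, CLDN2, MARVELD2, EPCAM, CDH1, KRT8, KRT18, VIL1, CDX2 and neighbouring genes were added after their values were seen. Older symbols were matched through RefSeq (2 list genes), and PECAM1 was not matched. Promoter sequences are from RefSeq, GRCh38.p14, and no coordinates are given because the builds differ. The values of 1 list gene are not reported here. Alternatives are given below. Analyses used Python 3.11.15, pandas 2.3.3, scipy 1.17.1 and statsmodels 0.14.6.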

Additional observations from a re-analysis of the deposited data

How the results depend on the processing

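The number of members past 2-fold depended on the pseudocount, the minimum and the fold rule. With a pseudocount of 5, a minimum of 5 RPKM or a 4-fold rule it was 0 in SA and SPH against DLD1 and in METS against SA and SPH. With a 1.5-fold rule it was 4 for SA and 1 for METS against DLD1, 3 for SPH against SA, and 4 and 5 for METS against SA and SPH, where over all genes it was passed by 322 of 11367, 609 of 11275, 212 of 11431, 741 of 11409 and 1021 of 11495. With a pseudocount of 0.1 it was 1 for SPH against SA and 2 for METS against SA and against SPH. Median-of-ratios factors, no minimum and GC correction gave the same counts for all 6 pairs, as did, against DLD1 and chosen after seeing the data, ratios with no pseudocount. Over all genes the 2-fold counts with pseudocounts of 0.1, 1 and 5 were 211, 77 and 12 for SA against DLD1, 350, 144 and 24 for SPH and 368, 160 and 31 for METS. They were 117, 30 and 1 for SPH against SA, 484, 219 and 46 for METS against SA and 672, 304 and 55 for METS against SPH. With a minimum of 5 RPKM they were 29, 61, 88, 16, 118 and 155 in the same order of pairs.

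In the class test no member passed with no minimum (limma-trend called 0 of 24097 genes and gave 2208 an unadjusted p under 0.05) or with a minimum of 5 RPKM, which removes CLDN11. Leaving out 1 line gave 0 to 1 members, and 5 to 305 genes in all. The 40 genes called over all became 26 with a pseudocount of 0.1 and 5 with the minimum of 5 RPKM. Class folds turned for TJP3 (-0.019 with median-of-ratios factors, -0.018 with GC correction) and CLDN3 (-0.003 with GC correction). With 1 line left out they ran from -0.372 to 0.406 for TJP3, from -0.344 to 0.416 for CLDN3 and from -0.093 to 0.240 for CLDN12. A lone line of a class was then assumed to vary like the pair of the other. No paired analysis was possible because each line has 1 library and no replicate numbers. Values under 0.1 RPKM, such as CLDN11 in METS and DLD1, rest on few reads.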

Other observations

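Among proteases and kinases known to act on tight junctions none of 11 tested genes passed the class test (limma-trend), where 0.355% of all genes did. Of the 11 genes 2 had an unadjusted p under 0.05 (limma-trend), which 8.65% of all genes tested reached. PRSS8, the membrane protease prostasin, stood at 14.92 RPKM in SA, 26.27 in SPH and 21.27 in METS, against 27.26 in DLD1, and so was lowest in SA like CLDN7, CLDN4 and TJP3. The membrane metalloprotease MMP14 stood at 1.74 RPKM in SA, 1.64 in SPH and 0.61 in METS, against 1.88 in DLD1. EPHA2, a receptor kinase known to phosphorylate claudins (named after its values were seen), stood at 28.63 RPKM in SA and 24.87 RPKM in SPH, against 43.43 in METS and 36.42 in DLD1 (class fold -0.56 ± 0.13 SE, adjusted p = 0.34, limma-trend).

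Markers of other cells and of the colon varied between lines as well. CDH17, an intestinal cadherin, stood at 26.15 RPKM in SA, 34.98 in SPH and 14.18 in METS, against 22.51 in DLD1. The intestinal keratin KRT20 stood at 4.06, 3.18 and 0.50 against 21.92. VIL1, another colorectal marker, was highest in METS, at 3.35 RPKM, against 1.89 in SA, 1.41 in SPH and 1.39 in DLD1. CDX2 stood at 31.37, 35.99 and 27.58 RPKM in SA, SPH and METS, against 31.88 in DLD1. The epithelial factor ELF3 stood at 9.63, 13.84 and 23.66 RPKM in SA, SPH and METS, against 13.64 in DLD1, and KRT19 at 219.28, 280.27 and 437.61 against 319.36. Of 7 matched endothelial markers 3 were listed at 0 in all lines, and CLDN5 was the 1 that reached 1 RPKM (1.21, 1.13 and 0.85 RPKM in SA, SPH and METS, against 1.01 in DLD1). Among 7 alveolar markers AGER did (1.25, 1.29 and 0.87 against 1.03), and among leukocyte markers CD14 (0.71, 0.81 and 1.36 against 0.89). The part of these markers in the tight junction values was not tested.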
